A study of Mus musculus with 12 samples.

Results

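The 8 genes described here are transcription factors that mark or pattern the mesenchyme of the lung: Tcf21, Tbx2, Tbx3, Tbx4, Tbx5, Foxf1, Gata6 and Meox2. They were chosen by name, and each matched 1 of the 40760 genes in the deposited tables, so all 8 of 8 were found. The libraries came from cells sorted from the lungs of male mice with an antibody to CD140a, the surface receptor encoded by Pdgfra. There were 12 libraries in 4 groups of 3: wild-type mice given vehicle (WT vehicle), Pear1-/- mice given vehicle (Pear1-/- vehicle), wild-type mice given bleomycin (WT bleo) and Pear1-/- mice given bleomycin (Pear1-/- bleo). Bleomycin is a DNA-damaging drug that is used to induce lung fibrosis in mice, and PEAR1 is a transmembrane receptor with EGF-like repeats. The Pear1-/- mice carried a gene-trap cassette in the germline, so every cell of the mouse, not only the sorted cells, carried the allele. All 12 libraries were made from CD140a+ cells, and no other agent or allele was named for any group. The study's methods describe its mice in general as young adult males on a C57BL/6 background. The number of mice behind a library is not given in the labels, and nothing in them says that the libraries of a group came from separate animals. The p-values then measure only the spread between these libraries, which may be technical.

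As background, the mesenchyme of the lung arises from mesoderm around the early lung bud, and a small set of transcription factors gives it its identity. The T-box factors Tbx4 and Tbx5 act together in the early lung mesenchyme, where they are needed for the Fgf10 signal that makes the airway branch. Tbx2 and Tbx3 are T-box repressors that hold back cell cycle inhibitors and secreted Wnt antagonists in the same tissue. Tcf21 is a basic helix-loop-helix factor of lung fibroblasts, among them the lipid-storing fibroblasts of the alveolus. Foxf1 is a forkhead factor that acts downstream of Hedgehog signalling in mesenchyme and is also made by lung endothelium. Gata6 is a zinc-finger factor made by mesenchyme, smooth muscle, airway epithelium and some macrophages, and Meox2 is a homeobox factor of mesoderm and of blood vessels. Several of the 8 are therefore not made by fibroblasts alone. In bulk samples, fewer cells of a type and less RNA per cell cannot be told apart.

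Values below are normalized counts, obtained by dividing each library's counts by its size factor from the authors' table, and are given as mean ± SD over n = 3 libraries. Total counts ran from 6702948 to 10447101 reads on genes per library. The 8 genes had raw counts between 42 and 908 in every library, so each lay above the 3 counts taken as the floor of detection, and all 8 passed the filter on low counts that left 17418 genes to be tested. Differences are log2 fold changes ± their standard errors (SE) from the quasi-likelihood fit of edgeR, with p adjusted by Benjamini-Hochberg over those 17418 genes, and a gene is said to be called, higher or lower, when its adjusted p was under 0.05.

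One library did not resemble its group. The chi-square per degree of freedom between the counts of a pair of libraries, which is 1 for counting noise alone, was 25.2 and 26.02 between WT vehicle replicate 2 and the other 2 WT vehicle libraries. It was 1.81, 2.29 and 2.92 between that library and the 3 Pear1-/- vehicle libraries, and between 1.37 and 5.46 for all other pairs within a group. The labels were kept as deposited. Calls of the 8 genes against WT vehicle are given with and without this library, and so are the main counts of the gene lists, while means, shares and ratios of WT vehicle include it. Counts of Pear1 itself were not lower in every Pear1-/- group. WT vehicle had 547 ± 28.8 normalized counts and Pear1-/- vehicle 519.7 ± 24.02, and the libraries of these groups overlapped. WT bleo had 254 ± 14.0 and Pear1-/- bleo 357 ± 14.2, without overlap and with the libraries labelled Pear1-/- higher (0.48 ± 0.077 SE on the log2 scale, adjusted p = 0.00012 in edgeR). In an exact two-sided permutation test the vehicle groups gave p = 0.3, and the bleo groups gave p = 0.1, the smallest that 3 against 3 libraries allow. A gene-trap allele can leave reads upstream of the cassette, and counts per gene do not show where in Pear1 the reads lay. The genotype of a library is thus its label throughout.

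The sort was also checked against markers. Mean normalized counts of Pdgfra were 4565 ± 325 in WT vehicle and 4165 ± 39.1 in Pear1-/- vehicle, against 1360.1 ± 29.9 after bleo in WT and 2392 ± 18.8 after bleo in Pear1-/- cells. Markers of other cells were present in every group: no gene on the lists of 24 leukocyte, 12 endothelial, 13 epithelial, 6 mesothelial, 7 smooth muscle and 7 pericyte markers was at or under 3 counts in all libraries of a group, other than 1 leukocyte gene, Ly6g, with 3 counts in each WT bleo library. The summed normalized count of the leukocyte list ran from 28647 to 45873 in WT vehicle and from 44806 to 49729 in Pear1-/- vehicle. After bleo it ran from 163242 to 164243 in WT and from 70687 to 72624 in Pear1-/- libraries.

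All 8 genes lie on assembled chromosomes of GRCm38. In the GENCODE M21 annotation Tcf21 (ENSMUSG00000045680) lies at chr10:22817281-22820174 on the minus strand. Tbx2 (ENSMUSG00000000093, chr11:85832551-85841948) and Tbx4 (ENSMUSG00000000094, chr11:85886422-85916097) are neighbours on the plus strand, 44473 bases apart with 1 annotated gene between them. Tbx3 (ENSMUSG00000018604, chr5:119670669-119684724) and Tbx5 (ENSMUSG00000018263, chr5:119832668-119885219) form a second pair on the plus strand, 147943 bases apart with 3 annotated genes between them. Foxf1 (ENSMUSG00000042812) lies at chr8:121084386-121088144, Meox2 (ENSMUSG00000036144) at chr12:37108540-37179534 and Gata6 (ENSMUSG00000005836) on chromosome 18, all on the plus strand. The library kit does not keep strand, so reads of Tbx3 and Gata6 that fall on exons shared with an antisense gene cannot be assigned to either: 115 bases are shared with Tbx3os1 and 93 bases with 1010001N08Rik.

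In WT vehicle the mean level per kilobase of exon ran from 22.8 for Gata6 to 379 for Tcf21. Levels are compared between genes only on this scale, as normalized counts per kilobase of annotated exon. In WT vehicle Tcf21 had 379 ± 42.3 per kilobase, Meox2 had 267 ± 26.4 and Tbx4 had 187 ± 8.38, and none of these 3 overlapped its neighbour in the order. Foxf1 followed at 109 ± 5.77 and Tbx2 at 91.6 ± 28.9, then Tbx3 at 83.4 ± 7.49, and among these 3 neighbouring libraries overlapped. In WT vehicle replicate 2 alone Tbx2 was at 59.6 per kilobase and below Tbx3 at 76.6, while in the other 2 libraries it was at 99.5 and 116 and above Tbx3. Tbx5 had 59.1 ± 9.34 per kilobase and Gata6 had 22.8 ± 2.15, the lowest of the 8 in every group. In Pear1-/- vehicle the order was the same apart from Tbx2, which came after Tbx3, and no neighbours overlapped.

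After bleo the order changed at the top. In WT bleo Meox2 had 142 ± 1.35 per kilobase and Tcf21 had 129 ± 3.40, with no overlap between them, while Tbx4 at 118.5 ± 11.5 overlapped Tcf21. In Pear1-/- bleo Meox2 led at 264 ± 8.55, followed by Tbx4 at 229.6 ± 5.38 and Tcf21 at 129.7 ± 12.5, overlapping Tbx2 at 112 ± 7.65. Foxf1 came after Tcf21, Meox2 and Tbx4 in the 3 other groups, and in Pear1-/- bleo only Gata6 lay below it, at 60.3 ± 5.99 for Foxf1. The ranks depend on the exon length used: with the longest transcript in place of all exons, Tcf21 rather than Meox2 was first in WT bleo, Tbx3 came before Foxf1 in WT vehicle, and Tbx5 came before Tbx2 in both Pear1-/- groups. Gata6 moved most with the length, to 39.1 in WT vehicle and 11.5 in Pear1-/- bleo, where it was at 22.8 and 6.71 over all exons, and it was the lowest in every group with either length.

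RefSeq's GRCm38.p6 table of windows from 250 bases before to 50 bases after a transcript's start held 3 of the 8 genes, Tcf21, Tbx4 and Meox2. Their promoters are shown to give the sequence at the start of members whose values after bleo are described below. Capitals mark the letters of a searched motif found on either strand.
Tcf21, chr10:22820094-22820393, minus strand: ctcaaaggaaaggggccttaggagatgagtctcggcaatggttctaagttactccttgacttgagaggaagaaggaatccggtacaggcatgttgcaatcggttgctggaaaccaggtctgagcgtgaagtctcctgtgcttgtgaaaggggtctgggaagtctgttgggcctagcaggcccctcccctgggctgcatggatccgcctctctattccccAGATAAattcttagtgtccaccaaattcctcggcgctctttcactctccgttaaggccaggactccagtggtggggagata
Tbx4, chr11:85896515-85896814, plus strand: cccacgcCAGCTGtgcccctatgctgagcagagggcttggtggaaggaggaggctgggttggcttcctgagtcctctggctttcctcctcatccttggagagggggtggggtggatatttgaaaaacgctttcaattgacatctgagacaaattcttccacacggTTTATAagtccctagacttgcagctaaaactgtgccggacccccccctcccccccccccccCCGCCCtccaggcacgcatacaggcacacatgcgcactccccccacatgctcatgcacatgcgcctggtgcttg
Meox2, chr12:37108290-37108589, plus strand: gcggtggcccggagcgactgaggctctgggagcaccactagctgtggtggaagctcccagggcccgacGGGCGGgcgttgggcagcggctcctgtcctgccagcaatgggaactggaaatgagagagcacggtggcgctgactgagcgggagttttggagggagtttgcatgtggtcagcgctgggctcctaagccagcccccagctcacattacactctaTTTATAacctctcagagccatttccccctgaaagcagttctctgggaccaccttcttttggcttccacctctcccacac
The Tbx4 window lies inside the GENCODE gene body, since RefSeq starts that transcript downstream of the first GENCODE start. Tbx4 and Meox2 each held the TATA box TATAAA on the opposite strand, starting at positions -85 and -29 from the start, and 13.6% of all 32544 promoters of this length held it. Both also held the GC box GGGCGG, at -24 on the opposite strand in Tbx4 and at -182 in Meox2, as did 35.9% of all promoters. Tbx4 held the E-box CAGCTG at -243, present in 16.4% of promoters. Tcf21 held 1 match, the GATA site AGATAA at -31, present in 11.2% of promoters. Of the other 6 motifs searched on both strands, none was found in the 3 windows. They were the CCAAT box, whose letters name it (in 37.4% of all promoters), the T-box element AGGTGTGA (1.28%), the forkhead site GTAAACA (3.66%), the TEAD site GGAATG (14.6%), the AP-1 site TGAGTCA (5.19%) and the GLI site GACCACCCA (0.246%). No motif overlapped another. Their GC content was 53.3% in Tcf21, 59.0% in Tbx4 and 60.7% in Meox2, against a median of 53.0% over all promoters.

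**Figure D1:**
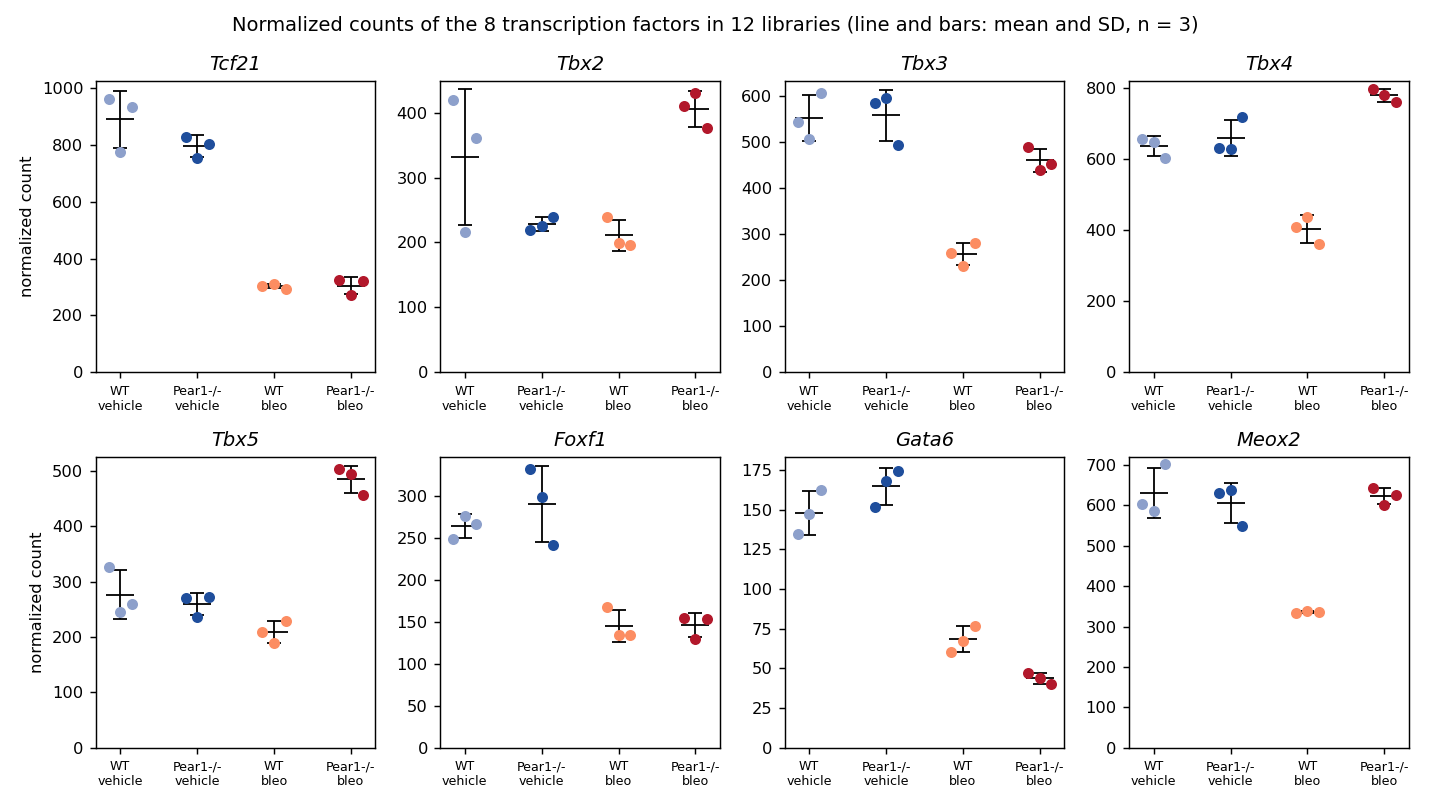
Normalized counts of each gene (vertical axis, from 0) in the 12 libraries, by group (horizontal axis); points are libraries, and the line and bars are the mean and SD of 3 libraries. In WT bleo the 3 points of 7 genes lie below all WT vehicle points, the exception being Tbx2, and in Pear1-/- bleo those of Tbx2, Tbx4 and Tbx5 lie above all Pear1-/- vehicle points.

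The first comparison asked how bleo changed the 8 genes in wild-type cells. All 8 were lower in WT bleo than in WT vehicle, by between 0.39 and 1.55 on the log2 scale, with a median log2 fold change of -0.87 against -0.07 over all genes tested. Of all genes tested, 36.6% were called lower, 31.4% higher and 68% in either direction, so a call in this comparison is common. Tcf21, Tbx3 and Gata6 were past a 2-fold change as well, which 23.5% of all genes tested were in this direction. Leukocyte markers moved the other way. Of the 24, 14 were called higher and 7 lower. Of the 15 fibroblast markers, 13 were called lower and 2 higher, with a median of -1.497, and their summed normalized count went from between 168390 and 186875 in WT vehicle to between 117656 and 118764 in WT bleo. Markers of other cells were lower as well. Of the 13 epithelial markers 11 were called lower and 2 higher, and their summed normalized count went from between 43476 and 62001 in WT vehicle to between 16834 and 17068 in WT bleo. Of the 12 endothelial markers 9 were called lower, with sums from 5365 to 6184 in vehicle and from 3342 to 3549 in bleo libraries. Of the 6 mesothelial markers 5 were called lower, with sums from 680 to 879 and from 283 to 298. Smooth muscle markers had 4 lower and 2 higher of 7, and pericyte markers 3 lower and 1 higher of 7. Without WT vehicle replicate 2 the leukocyte list had 15 higher and 7 lower, the endothelial list 1 higher and 9 lower and the smooth muscle list 2 higher and 3 lower, and the fibroblast, epithelial, mesothelial and pericyte lists had the same counts as with it. The part of cell make-up in the lower values of the 8 genes was not tested.

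Tcf21 had 962, 777 and 933 normalized counts in the WT vehicle libraries and 305, 309 and 294 in the WT bleo libraries. It fell furthest of the 8 in wild-type cells, with a log2 fold change of -1.55 ± 0.095 (SE, adjusted p = 1.46e-09). Gata6 had 134.6, 147 and 163 in WT vehicle and 60.6, 67.3 and 76.9 in WT bleo. Its log2 fold change was -1.11 ± 0.131 (SE, adjusted p = 2.70e-06). For both genes every bleo library lay far below every vehicle library.

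Among the T-box factors Tbx3 fell most. It had 545, 507 and 606 normalized counts in WT vehicle and 259, 231 and 279 in WT bleo, a log2 fold change of -1.09 ± 0.1004 (SE, adjusted p = 1.65e-07). Tbx4 had 657, 649 and 604 in WT vehicle and 409.6, 439 and 361 in WT bleo, a log2 fold change of -0.65 ± 0.083 (SE, adjusted p = 6.52e-06). The groups did not overlap for either gene, and the spread within WT vehicle was under 10% of the mean for both.

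Tbx5 and Tbx2 gave the smallest and least stable differences. Tbx5 had 326, 245 and 259 normalized counts in WT vehicle and 209, 189.7 and 229 in WT bleo, a log2 fold change of -0.39 ± 0.114 (SE, adjusted p = 0.00728). Without WT vehicle replicate 1, its highest library, the value was -0.25 (adjusted p = 0.0576), and without WT bleo replicate 2 it was -0.27 (adjusted p = 0.0652). Tbx2 had 419.6, 216 and 361 in WT vehicle, where replicate 2 lay far below the other libraries, and 239, 199 and 195 in WT bleo. Its groups overlapped, and the log2 fold change was -0.63 ± 0.176 (SE, adjusted p = 0.00495).

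Meox2 and Foxf1 fell by less than 2-fold. Meox2 had 603, 586 and 702 normalized counts in WT vehicle and 332, 339 and 337 in WT bleo, a log2 fold change of -0.90 ± 0.086 (SE, adjusted p = 2.69e-07). Foxf1 had 249, 276 and 267 in WT vehicle and 167, 133.6 and 134.6 in WT bleo, a log2 fold change of -0.85 ± 0.127 (SE, adjusted p = 2.98e-05). Neither gene's groups overlapped. The WT bleo libraries lay below all WT vehicle libraries for 7 of the 8 genes, as they did for 36.7% of all genes tested.

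Leaving out WT vehicle replicate 2 kept all 8 genes called lower, with values from -0.40 for Tbx5 to -1.57 for Tcf21, and 44.7% of the 20405 genes tested in that fit were called lower. With that library as the lone WT vehicle library, which is then assumed to vary like the other groups, 6 of the 8 were called lower, as were 31.9% of 18175 genes. Tbx2 was then at -0.01 (adjusted p = 0.932) and Tbx5 at -0.21 (adjusted p = 0.169), and neither was called.

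The direction in this comparison depends on what the libraries are scaled to. Relative to Pdgfra, whose own log2 fold change in WT bleo was -1.74, none of the 8 genes was called lower and 7 were called higher. Tcf21 stayed closest to Pdgfra at 0.19 (adjusted p = 0.0598), and the 7 others lay between 0.62 for Gata6 and 1.35 for Tbx5. This scaling moved the median of all genes to 1.66, and 77.2% of all genes tested were then called higher and 8.5% lower, so each of the 8 lay below that median. For every 1000 counts of Pdgfra, Tcf21 had 195 ± 8.20 counts in WT vehicle and 223 ± 10.6 in WT bleo, while Tbx5 had 60.4 ± 6.69 and 154 ± 11.3.

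**Figure D2:**
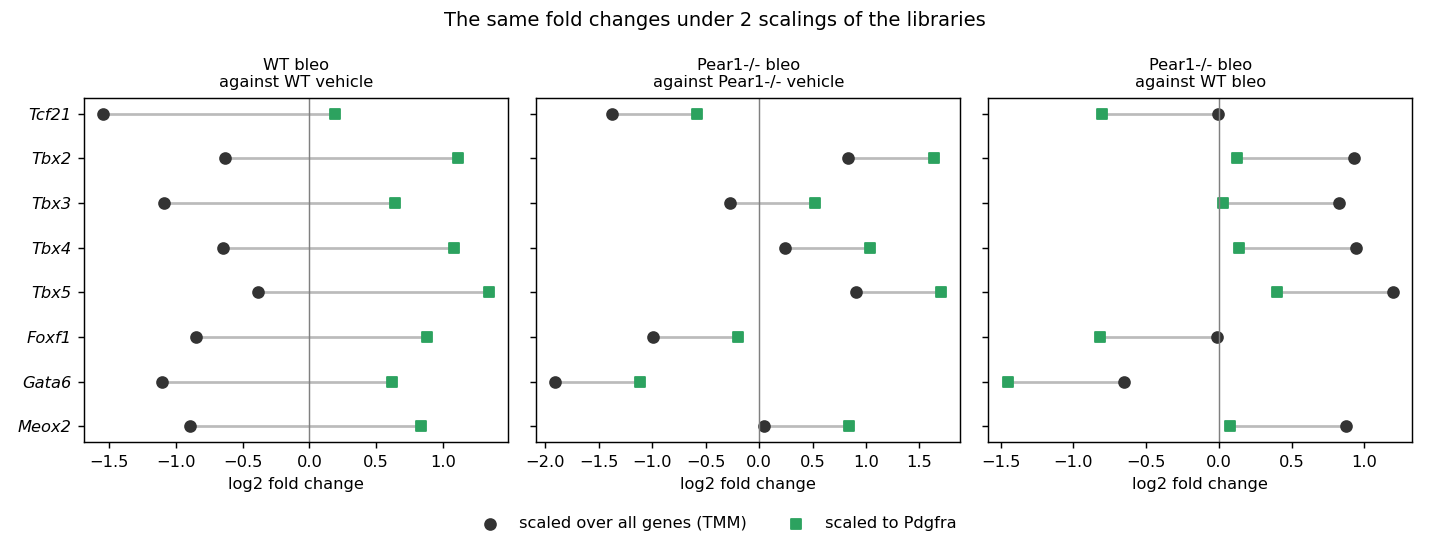
Log2 fold changes of the 8 genes (horizontal axis) with libraries scaled over all genes (circles) and scaled to Pdgfra (squares), for 3 comparisons. In WT bleo against WT vehicle all 8 circles lie below 0 and all 8 squares above it. In Pear1-/- bleo against WT bleo 5 genes lie above 0 on both scalings. Of these, the squares of Tbx2, Tbx3, Tbx4 and Meox2 lie between 0.03 and 0.14. Gata6 lies below 0 on both scalings, and Tcf21 and Foxf1 have circles near 0 and squares at -0.81.

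The second comparison asked the same of Pear1-/- cells, and there the 8 genes did not move one way. Tbx2, Tbx4 and Tbx5 were called higher in Pear1-/- bleo than in Pear1-/- vehicle, Tcf21, Tbx3, Foxf1 and Gata6 were called lower, and Meox2 was not called. Of all genes tested, 28.9% were called higher and 33.4% lower. The median log2 fold change of the 8 genes was -0.12 and that of all genes tested was -0.05.

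Tbx5 had 269.9, 237 and 272 normalized counts in Pear1-/- vehicle and 503, 494 and 457 in Pear1-/- bleo. The log2 fold change was 0.91 ± 0.106 (SE, adjusted p = 3.12e-06). Tbx2 had 219.7, 225 and 240.1 in the vehicle libraries and 410.2, 432 and 377 in the bleo libraries, a log2 fold change of 0.84 ± 0.170 (SE, adjusted p = 0.000561). For both genes the lowest bleo library was well above the highest vehicle library, an order found for 33.2% of all genes tested.

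Tbx4 rose by less. It had 633, 629 and 720.3 normalized counts in Pear1-/- vehicle and 799, 781 and 763 in Pear1-/- bleo, a log2 fold change of 0.25 ± 0.080 (SE, adjusted p = 0.0149). Leaving out any one of 6 libraries ended this call, with adjusted p between 0.0532 and 0.133 and values from 0.19 to 0.25. The 6 were Pear1-/- vehicle replicates 1 and 2, all 3 Pear1-/- bleo replicates and WT bleo replicate 1, which belongs to neither group. Tbx3 had 585, 595 and 494 in Pear1-/- vehicle and 488, 440.1 and 453 in Pear1-/- bleo, where the lowest vehicle library was just above the highest bleo library. Its log2 fold change was -0.27 ± 0.095 (SE, adjusted p = 0.0204). This call was lost without Pear1-/- vehicle replicate 1 or 2, without Pear1-/- bleo replicate 2 or 3, with limma and with no filter on low counts. In those settings adjusted p was between 0.0502 and 0.115 and the values lay from -0.27 to -0.22.

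Gata6 fell furthest in Pear1-/- cells. It had 152, 168 and 175 normalized counts in Pear1-/- vehicle and 47.1, 43.8 and 40.0 in Pear1-/- bleo, a log2 fold change of -1.91 ± 0.135 (SE, adjusted p = 1.26e-08). Tcf21 had 829, 754 and 803 in the vehicle libraries and 323, 271 and 320.3 in the bleo libraries, a log2 fold change of -1.38 ± 0.094 (SE, adjusted p = 7.61e-09). Foxf1 had 331, 298 and 241 in Pear1-/- vehicle and 154.5, 129 and 153 in Pear1-/- bleo, a log2 fold change of -0.99 ± 0.124 (SE, adjusted p = 5.84e-06). In all 3 genes the bleo libraries lay below all vehicle libraries, as they did for 37.8% of all genes tested. Markers of cells that also make Gata6 or Foxf1 differed in the same comparison. Of the 13 epithelial markers 12 were called lower and 1 higher, and their summed normalized count went from between 58736 and 68148 in Pear1-/- vehicle to between 7241 and 7442 in Pear1-/- bleo. Of the 12 endothelial markers 10 were called lower, with sums from 5966 to 6615 and from 3419 to 3635. Smooth muscle markers had 4 higher and 3 lower of 7, with sums from 5447 to 6127 and from 13344 to 13581. Leukocyte markers had 10 higher and 11 lower of 24, with sums from 44806 to 49729 and from 70687 to 72624. Of the 15 fibroblast markers 11 were called lower and 3 higher, although their sum was higher, from 185042 to 192204 in vehicle and from 295213 to 305056 in bleo libraries. Most of the sum in Pear1-/- bleo came from Col1a1, Col1a2 and Col3a1, with means of 142173, 63672 and 72242, against 31524, 22151 and 36791 in Pear1-/- vehicle. Cd34 went from 3713 to 848 and Col14a1 from 2748 to 628. The sum thus follows these collagen genes and not the list as a whole. Pericyte markers had 2 higher and 3 lower of 7, with sums from 1857 to 2132 and from 2563 to 2715, and mesothelial markers 3 lower of 6, with sums from 611 to 666 and from 481 to 503. The part of these cells in the values of the 8 genes was not tested.

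Meox2 had 631, 638 and 549 normalized counts in Pear1-/- vehicle and 642, 602 and 624 in Pear1-/- bleo. The log2 fold change was 0.04 ± 0.082 (SE, adjusted p = 0.671), and the groups overlapped. Relative to Pdgfra, which fell by 0.80 on the log2 scale in this comparison, 5 of the 8 genes were called higher, Meox2 and Tbx3 among them, as were 63.4% of all genes tested. Tcf21 at -0.59 and Gata6 at -1.11 were still called lower on that scale, as were 14.2% of all genes tested, and Foxf1 at -0.20 was not called (adjusted p = 0.201).

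**Figure D3:**
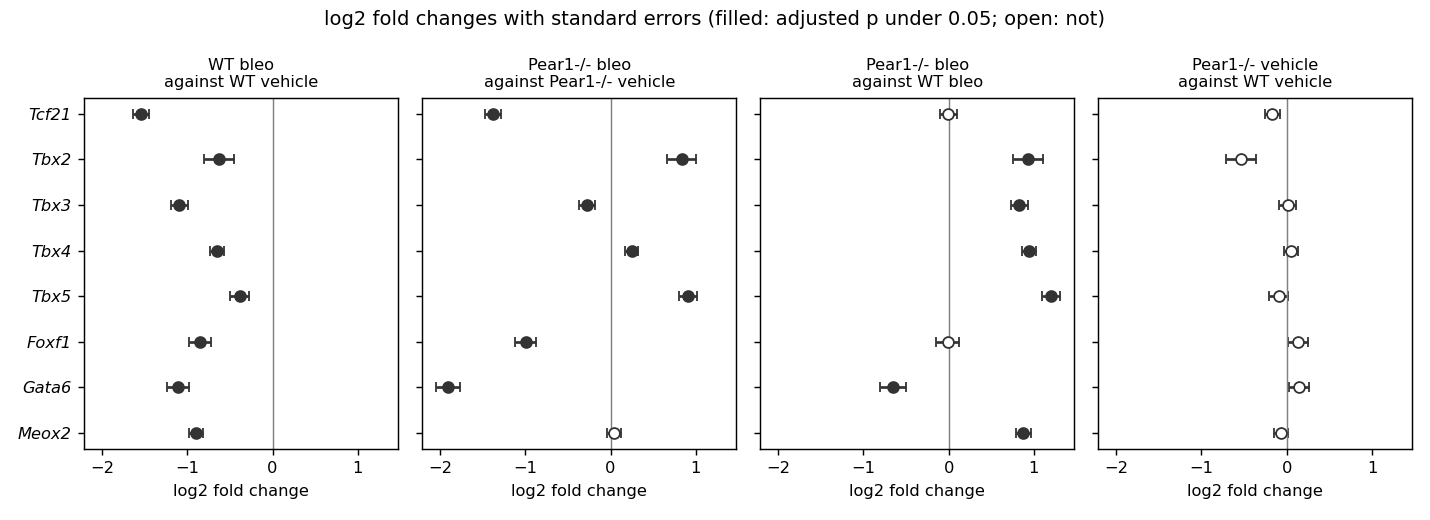
Log2 fold changes (horizontal axis) with standard errors for the 8 genes in 4 comparisons, one panel each; filled points had an adjusted p under 0.05 and open points did not. All 8 are filled and below 0 in WT bleo against WT vehicle, and none is filled in Pear1-/- vehicle against WT vehicle.

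The third comparison set the bleo groups side by side. Tbx2, Tbx3, Tbx4, Tbx5 and Meox2 were called higher in Pear1-/- bleo than in WT bleo, Gata6 was called lower, and Tcf21 and Foxf1 were not called. Of all genes tested, 22.1% were called higher and 23.9% lower. The median log2 fold change of the 8 genes was 0.85 and that of all genes tested was -0.01.

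The per-library values of both bleo groups are those given above. For Tbx2, Tbx3, Tbx4, Tbx5 and Meox2 the lowest Pear1-/- bleo library was above the highest WT bleo library, which was so for 31.3% of all genes tested. Tbx5 differed most, with a mean of 209 ± 19.6 normalized counts in wild-type and 485 ± 24.8 in Pear1-/- cells after bleo and a log2 fold change of 1.20 ± 0.108 (SE, adjusted p = 3.56e-07). It was the 1 gene of the 8 past a 2-fold change, as 6.26% of all genes tested were in this direction. Tbx4 had 403 ± 38.9 and 781 ± 18.3, a log2 fold change of 0.94 (adjusted p = 2.56e-07).

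Tbx2 stood at 211 ± 24.1 normalized counts in the wild-type and 406 ± 27.7 in the Pear1-/- libraries, a log2 fold change of 0.93 (adjusted p = 0.000378). Meox2 had 336 ± 3.19 and 623 ± 20.2, a log2 fold change of 0.88 (adjusted p = 7.66e-07). Tbx3 had 257 ± 24.1 and 460.4 ± 25.02, a log2 fold change of 0.83 (adjusted p = 7.20e-06). The 5 genes thus differed between the bleo groups by between 0.83 and 1.20 on the log2 scale.

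Gata6 went the other way, from 68.3 ± 8.21 normalized counts in WT bleo to 43.6 ± 3.52 in Pear1-/- bleo. The log2 fold change was -0.65 ± 0.149 (SE, adjusted p = 0.00218), at raw counts of only 42 to 76 per library. Tcf21 had 303 ± 7.98 in WT bleo and 305 ± 29.5 in Pear1-/- bleo (log2 fold change 0.00 after rounding, standard error 0.097, adjusted p = 0.995). Foxf1 had 145 ± 19.1 and 146 ± 14.5 (log2 fold change -0.01, standard error 0.132, adjusted p = 0.959). The libraries of the bleo groups overlapped for both.

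Pdgfra was itself higher in Pear1-/- bleo, by 0.80 on the log2 scale (adjusted p = 1.47e-07), and Ptprc, which encodes the leukocyte antigen CD45, was lower, with a log2 fold change of -1.19 (adjusted p = 3.71e-08). Of the 24 leukocyte markers 18 were called lower and 1 higher. Relative to Pdgfra only Tbx5 of the 8 was still called higher, at 0.40 (adjusted p = 0.00284), where 3.94% of all genes tested were. Tbx2, Tbx3, Tbx4 and Meox2 lay between 0.03 and 0.14 and were not called. Tcf21 at -0.81, Foxf1 at -0.81 and Gata6 at -1.45 were then called lower, when the median of all genes had moved to -0.81 and 71.1% of all genes tested were called lower. The part of the share of Pdgfra+ cells in these differences was not tested.

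Other lists moved in this comparison too. Of the 15 fibroblast markers 7 were called higher and 2 lower, and their summed normalized count ran from 117656 to 118764 in WT bleo and from 295213 to 305056 in Pear1-/- bleo. Most of that sum in both groups came from Col1a1, Col1a2 and Col3a1. Their means were 42471, 23269 and 32088 in WT bleo and 142173, 63672 and 72242 in Pear1-/- bleo. Of the 7 smooth muscle markers 5 were called higher and 1 lower, and their summed normalized count ran from 4734 to 4791 in WT bleo and from 13344 to 13581 in Pear1-/- bleo. Of the 13 epithelial markers 9 were called lower and 1 higher, with sums from 16834 to 17068 and from 7241 to 7442. Of the 12 endothelial markers 4 were called higher and 3 lower, with sums from 3342 to 3549 and from 3419 to 3635. Of the 6 mesothelial markers 4 were called higher, with sums from 283 to 298 and from 481 to 503. Of the 7 pericyte markers 1 was called higher and 1 lower, with sums from 1337 to 1447 and from 2563 to 2715. Gata6 is made by epithelium and smooth muscle as well as by fibroblasts, and the part of these cells in its values was not tested.

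The interaction of genotype and bleo tested whether the change with bleo differed between the genotypes as labelled. It was positive and called for Tbx2 (1.47 ± 0.244 SE, adjusted p = 0.000274), Tbx5 (1.29 ± 0.156 SE, adjusted p = 1.52e-05), Meox2 (0.94 ± 0.119 SE, adjusted p = 2.50e-05), Tbx4 (0.89 ± 0.116 SE, adjusted p = 3.02e-05) and Tbx3 (0.82 ± 0.138 SE, adjusted p = 0.000314). It was negative and called for Gata6 (-0.80 ± 0.191 SE, adjusted p = 0.00436). Tcf21 at 0.16 (adjusted p = 0.353) and Foxf1 at -0.15 (adjusted p = 0.548) were not called. Leaving out each library in turn gave values from 0.055 to 0.18 for Tcf21 and from -0.31 to -0.086 for Foxf1, with Foxf1 at -0.27 without WT vehicle replicate 2. Of all genes tested 17.9% were called with a positive interaction and 19.1% with a negative one, 37% in all. The 6 calls held without WT vehicle replicate 2, where 20.4% of genes had a positive and 26% a negative call, and with it as the lone WT vehicle library, where 16.1% and 16.8% did. In these fits Tbx2 had 1.62 and 0.87, Tbx5 had 1.29 and 1.13, Meox2 had 0.90 and 0.84, Tbx4 had 0.80 and 0.94, Tbx3 had 0.79 and 0.71 and Gata6 had -0.87 and -0.79. Relative to Pdgfra, 2 genes kept a positive call, Tbx2 at 0.52 (adjusted p = 0.0452) and Tbx5 at 0.36 (adjusted p = 0.0459), and Gata6 (-1.73), Foxf1 (-1.08) and Tcf21 (-0.78) had negative calls. On that scale 3.88% of all genes tested had a positive and 64.8% a negative call. Marker lists had interaction calls too, with scaling over all genes. They were negative for 19 of 24 leukocyte and 8 of 13 epithelial markers, and positive for 0 of either. Positive and negative calls were 5 and 0 of 7 for smooth muscle, 6 and 3 of 15 for fibroblast and 2 and 3 of 12 for endothelial markers. They were 2 and 0 of 6 for mesothelial and 2 and 0 of 7 for pericyte markers.

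**Figure D4:**
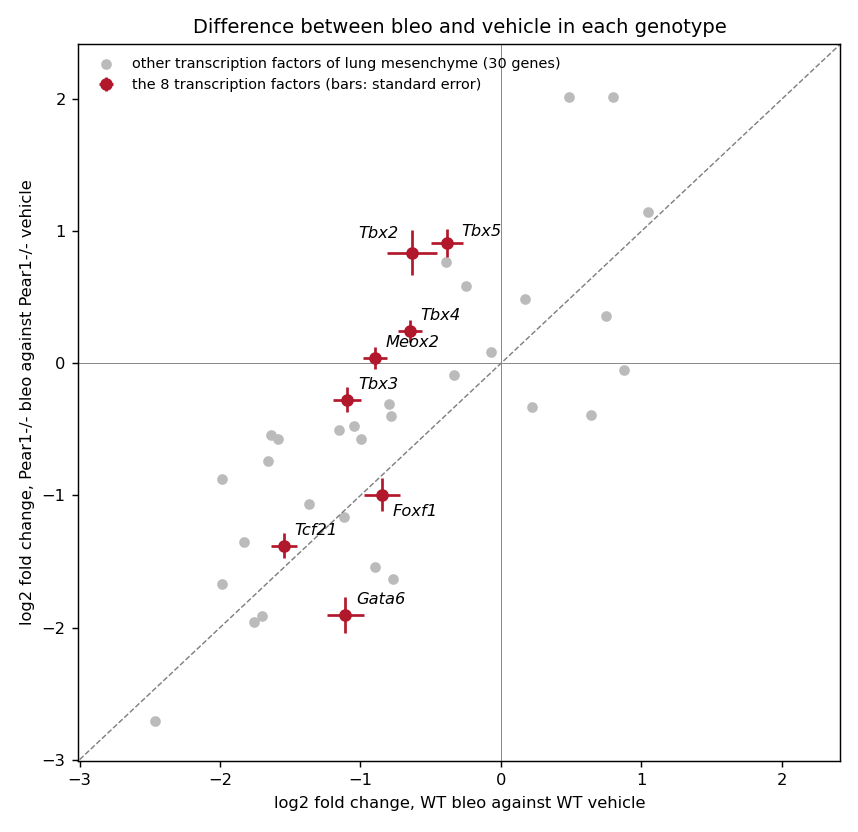
Log2 fold change between bleo and vehicle in Pear1-/- cells (vertical axis) against that in wild-type cells (horizontal axis), for the 8 genes with standard errors and for 30 other transcription factors; the dashed line marks equal values. Tbx2, Tbx3, Tbx4, Tbx5 and Meox2 lie above the line, Gata6 below it, and Tcf21 and Foxf1 near it.

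Between the vehicle groups none of the 8 genes was called by edgeR, where 4.5% of all genes tested were called. DESeq2's Wald test and limma called none of the 8 either. Limma called only 33 or 42 of 17418 genes, by pseudocount, so its lack of calls among the 8 says little. The largest difference was that of Tbx2, with 332 ± 105 normalized counts in WT vehicle and 228 ± 10.5 in Pear1-/- vehicle. Its log2 fold change was -0.54 ± 0.174 (SE, adjusted p = 0.0682), and it was the 1 gene of the 8 at an unadjusted p under 0.05. The 7 others lay between -0.17 for Tcf21 and 0.15 for Gata6. The background in this comparison turned on single libraries. It was 55.2% of 20405 genes without WT vehicle replicate 2, and edgeR called no gene when any 1 of the other 11 libraries was left out, although between 2955 and 6917 genes were then at an unadjusted p under 0.05. Without WT vehicle replicate 2, Tbx2 was called lower at -0.71 (adjusted p = 1.71e-07) and Tcf21 at -0.18 (adjusted p = 0.0252), so that 2 of the 8 were called lower against 29.7% of all genes in that fit. With no filter on low counts, where 8.17% of 40760 genes were called lower, Tbx2 was at -0.43 (adjusted p = 0.00669). With replicate 2 as the lone WT vehicle library Tbx2 was at 0.08 and not called. Marker lists moved with this library too. Between the vehicle groups the leukocyte list had 2 higher and 0 lower with it and 14 higher and 2 lower without it, the epithelial list 1 higher and then 7 higher and 1 lower, and the fibroblast list 3 lower and then 7 higher and 5 lower. The endothelial list had no call with it and 6 higher without it.

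The relative make-up of the 8 genes was compared as each gene's share of their summed level per kilobase, a measure that does not change with the scaling of a library. Tcf21 made up 31.5% ± 1.29 of the sum in WT and 29.8% ± 1.18 in Pear1-/- vehicle libraries, and 21.4% ± 0.491 in WT and 13.3% ± 1.05 in Pear1-/- bleo libraries. Its share in every bleo library was below that in every vehicle library. Tbx4 made up 15.7% ± 1.64 and 17.1% ± 1.70 in the vehicle groups, 19.7% ± 1.70 in WT bleo and 23.5% ± 0.509 in Pear1-/- bleo. Tbx5 made up 4.92% ± 0.6001, 4.88% ± 0.373, 7.45% ± 0.811 and 10.6% ± 0.497 in the same order. Foxf1 made up 9.16% ± 1.14, 10.5% ± 1.40, 9.97% ± 1.06 and 6.18% ± 0.505, and Gata6 made up 1.90% ± 0.218, 2.23% ± 0.221, 1.75% ± 0.257 and 0.687% ± 0.043.

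Ratios of raw counts within a library need neither a gene length nor a scaling. The ratio of Tcf21 to Tbx4 was 1.40 ± 0.181 in WT and 1.21 ± 0.097 in Pear1-/- vehicle libraries, and 0.754 ± 0.054 in WT and 0.390 ± 0.038 in Pear1-/- bleo libraries. The ratio of Gata6 to Tbx5 was 0.548 ± 0.118, 0.638 ± 0.074, 0.327 ± 0.034 and 0.0900 ± 0.0031 in that order. For both ratios the libraries of WT bleo lay between those of the vehicle groups and those of Pear1-/- bleo without overlap. The ratio of Tbx2 to its neighbour Tbx4 was 0.523 ± 0.166, 0.346 ± 0.013, 0.526 ± 0.066 and 0.520 ± 0.030 in that order, with 0.333 in WT vehicle replicate 2 and 0.597 and 0.638 in the other WT vehicle libraries. That of Tbx3 to its neighbour Tbx5 was 2.03 ± 0.338, 2.17 ± 0.347, 1.23 ± 0.0093 and 0.951 ± 0.053. WT bleo did not lie apart for every pair. The ratio of Foxf1 to Tbx4 ran from 0.305 to 0.408 in WT bleo, overlapping Pear1-/- vehicle at 0.335 to 0.523. The ratio of Tbx4 to Tbx5 ran from 1.58 to 2.31 in WT bleo, overlapping Pear1-/- bleo at 1.58 to 1.67. These ratios show unequal differences between genes and not which of a pair differed.

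**Figure D5:**
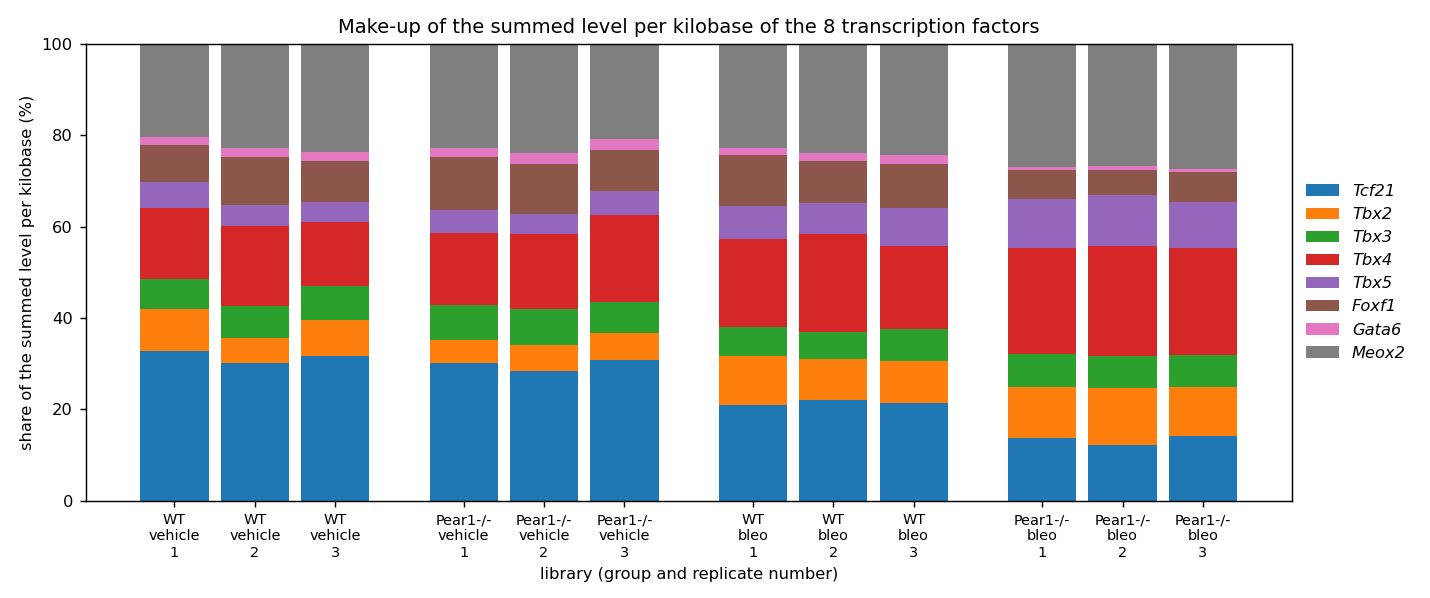
Share of each gene (vertical axis, percent) in the summed level per kilobase of exon of the 8 genes, with one stacked bar for each of the 12 libraries (horizontal axis). The Tcf21 segment is between 28.5% and 32.8% in the vehicle libraries, between 20.96% and 21.9% in WT bleo and between 12.1% and 14.1% in Pear1-/- bleo.

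Genes related to the 8 by sequence were described from a list of 20, of which 13 passed the filter on low counts. In WT bleo against WT vehicle 7 of the 13 were called lower and none higher, where 36.6% of all genes tested were called lower. Without WT vehicle replicate 2 that count was 10 lower and 1 higher of 15, where 44.7% of genes were called lower. In Pear1-/- bleo against WT bleo 4 were called higher and 2 lower, against 22.1% and 23.9% of all genes tested. Foxf2, the closest relative of Foxf1, was called higher in Pear1-/- bleo than in WT bleo (0.44 ± 0.114 SE, adjusted p = 0.00495), a comparison in which Foxf1 was at -0.01. Gata2, a relative of Gata6 made by endothelium and blood cells, fell with bleo in both genotypes, by 0.82 in WT and by 1.04 in Pear1-/- on the log2 scale. Gata5 fell by 1.36 in WT and by 0.58 in Pear1-/- cells and was higher in Pear1-/- bleo than in WT bleo (0.48, adjusted p = 0.0184), opposite to Gata6. Tbx21, the T-box factor of T and NK lymphocytes, fell by 1.06 in WT and by 1.58 in Pear1-/- cells.

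Other transcription factors of lung mesenchyme were described from a list of 30. In WT bleo 20 of the 30 were called lower and 6 higher, with and without WT vehicle replicate 2, and the median log2 fold change was -0.85. Of all genes tested 36.6% were called lower and 31.4% higher there. The factors with the smallest adjusted p were Osr1 (-1.99), which acts in early lung mesoderm, Foxp2 (-2.47), a forkhead factor of airway epithelium and mesenchyme, Hic1 (-1.98), a zinc-finger repressor of quiescent mesenchymal cells, and Heyl (-1.76), a Notch target. In Pear1-/- cells 20 were called lower and 7 higher, against 33.4% and 28.9% of all genes tested. Of the 30, 18 were called lower in both genotypes. Between the bleo groups 15 were called higher and 7 lower in Pear1-/- bleo, against 22.1% and 23.9% of all genes tested. There Prrx1, a homeobox factor of fibroblasts, had a log2 fold change of 0.94, Hic1 of 0.98 and Meis1 of 0.65, while Klf4 had one of -0.98. The interaction was called positive for 10 and negative for 6 of the 30, against 17.9% and 19.1% of all genes tested. Without WT vehicle replicate 2 it was called for 12 and 8, against 20.4% and 26%. Hoxa5, which patterns lung mesenchyme, was the 1 factor of the 30 called between the vehicle groups (-0.55, adjusted p = 0.0388). Its WT vehicle libraries ran from 551 to 828 normalized counts, and the call was lost in 11 of the 12 fits that left out a library, all but that without WT vehicle replicate 2. Those 11 fits called no gene at all between the vehicle groups, and Hoxa5 lay from -0.51 to -0.44 in them. The call was also lost with limma (-0.52), with only the groups compared (-0.56, adjusted p = 0.229) and scaled to Pdgfra (-0.40, adjusted p = 0.0515). With replicate 2 as the lone WT vehicle library Hoxa5 was at -0.13. The call was kept with DESeq2's Wald test (adjusted p = 0.0159). In edgeR it was kept with DESeq2 size factors (adjusted p = 0.0389), no filter (0.00208) and the replicate block (0.0427). Without WT vehicle replicate 2, 8 of the 30 were called higher and 5 lower, against 25.5% and 29.7% of all genes.

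Genes that textbook work places upstream or downstream of the 8 were taken from a list of 12, of which 11 were tested. In WT bleo 7 were called lower and 2 higher, with and without WT vehicle replicate 2, where 36.6% and 31.4% of all genes tested were with it. In Pear1-/- bleo against its vehicle 6 were called lower and 3 higher, against 33.4% and 28.9%. Fgf10, the branching signal downstream of Tbx4 and Tbx5, fell by 1.47 in WT and by 0.99 in Pear1-/- cells on the log2 scale. It was higher in Pear1-/- bleo than in WT bleo (0.38 ± 0.107 SE, adjusted p = 0.00866), as were Tbx4 and Tbx5. Pdgfra was higher there as well, and these values are not scaled to it. With bleo in Pear1-/- cells Fgf10 went the opposite way, since Tbx4 rose by 0.25 and Tbx5 by 0.91. Bmp4 fell by 2.097 and by 2.25, and Hhip, a target and antagonist of Hedgehog signalling, fell by 2.44 and by 2.82. Frzb, a secreted Wnt antagonist repressed by Tbx2 and Tbx3 in lung development, rose by 2.57 in WT and by 4.02 in Pear1-/- cells, and it was higher in Pear1-/- bleo than in WT bleo by 1.29 (adjusted p = 3.72e-05), as Tbx2 and Tbx3 were. Cdkn1a, a cell cycle inhibitor from the same set of targets and also a target of p53 after DNA damage, rose by 1.21 and by 1.02. Shisa3, a further such target, was higher in Pear1-/- bleo than in WT bleo (1.21, adjusted p = 0.000252). Cdkn1b, a cell cycle inhibitor among the same targets, was lower there (-0.44, adjusted p = 0.0322). Without WT vehicle replicate 2 the values in WT bleo were -1.52 for Fgf10, -2.07 for Bmp4, -2.22 for Hhip, 2.31 for Frzb and 1.33 for Cdkn1a, all with the same call.

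Antisense and divergent transcripts were described for the genes that had one with enough counts. Of 8 names listed 3 were in the table and 2 were tested, Fendrr and Tbx3os1, both called lower in WT bleo with and without WT vehicle replicate 2. Between the vehicle groups Fendrr was at 0.42 (adjusted p = 0.0538) and, without that replicate, was called higher at 0.65 (adjusted p = 5.51e-07). Fendrr, the long noncoding RNA transcribed away from the start of Foxf1, fell by 1.34 in WT and by 1.36 in Pear1-/- cells, and Foxf1 fell by 0.85 and by 0.99. Fendrr was higher in Pear1-/- bleo than in WT bleo (0.40 ± 0.137 SE, adjusted p = 0.0258), where Foxf1 was at -0.01 (adjusted p = 0.959). Tbx3os1, which overlaps Tbx3 on the opposite strand, fell by 2.29 in WT and by 0.88 in Pear1-/- cells and was higher in Pear1-/- bleo than in WT bleo (1.20 ± 0.238 SE, adjusted p = 0.000724), as was Tbx3. Its raw counts were 12 to 88 per library, and 115 of its exon bases are shared with Tbx3. Neighbours within 5000 bases that were on no list were looked at after the values were seen. On the strand opposite Gata6, 1010001N08Rik had raw counts of 18 to 26 in Pear1-/- vehicle and 0 to 2 in Pear1-/- bleo (adjusted p = 0.000327), and 2 to 19 in WT vehicle and 1 to 8 in WT bleo (adjusted p = 0.0661). It was lower with Gata6 in Pear1-/- cells and shares 93 exon bases with it. Beside Tbx2, 2610027K06Rik fell by 1.06 in WT and by 1.01 in Pear1-/- cells, at raw counts of 20 to 54. Mthfsd, a coding gene beside Foxf1, was called in no comparison. Gm43050, a noncoding neighbour of Tbx5, had a mean of 38.2 ± 5.47 normalized counts in the wild-type bleo libraries and of 112 ± 8.90 in the Pear1-/- ones.

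The genes whose pattern was most like each of the 8 were found by Pearson's r of log2(normalized count + 1) over the 12 libraries, which share their group structure, so no p is given. For Tcf21 they were Tmem204 (r = 0.996), Heg1 (0.994) and Colq (0.994). Heg1 and Tmem204 are made by endothelium among other cells. For Gata6 they were Dchs1 (0.992), Adh7 (0.991) and Rbp4 (0.990), the plasma carrier of retinol. For Foxf1 they were Gata2 (0.979), Rab30 (0.978) and Cd164 (0.974).

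For the genes that were higher in Pear1-/- bleo the list differed. Tbx5 was most like Gpx7 (0.981), Azin2 (0.973) and Col16a1 (0.970), and Tbx4 was most like Copz2 (0.984), the immunoglobulin gene segment Igkv6-14 (0.981) and Fbln2 (0.980), an extracellular matrix gene. Meox2 was most like B3galnt1 (0.987), Cav1 (0.987) and Flrt2 (0.985). Tbx3 was most like Armcx3 (0.989), Ghr (0.984), the growth hormone receptor, and Gpm6b (0.979), and Tbx2 was most like Armc1 (0.968), Ptdss2 (0.963) and Tsr1 (0.962). No gene was named for more than 1 of the 8. Without WT vehicle replicate 2 all 3 genes were kept for Tcf21, Tbx4 and Foxf1, 2 of 3 for Tbx3, Tbx5, Gata6 and Meox2, and 1 of 3 for Tbx2.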

How the data were processed

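CD140a+ cells of mouse lung were sorted, RNA was extracted with TRIzol, SMART-Seq v4 gave full-length cDNA, and libraries were prepared with a transposase kit that does not keep strand. The authors aligned the reads to GRCm38 with HISAT2. The submitters' processing notes also name FastQC and mm10, and the counting program and its annotation are not given in the sources used here. The authors deposited raw counts per gene, and a table of the same counts divided by 1 size factor per library, a signal on a linear scale. That deposited signal matched DESeq2's size factors computed from the counts and gave the normalized counts printed here.

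The 4 groups were taken from the sample titles. Total counts were between 6702948 and 10447101 per library, and the floor of 3 counts covers counting error only. Counts were fitted with edgeR 4.0.16 in R 4.3.3 (TMM scaling, filterByExpr by group, glmQLFit and glmQLFTest, 1 mean per group over all 12 libraries), with the interaction of genotype and bleo as the difference of differences, two-sided tests and Benjamini-Hochberg adjustment over 17418 genes. The steps were tested on simulated counts. Alternatives were DESeq2 1.42.0 (its size factors, and its Wald test), limma 3.58.1 on log2(normalized count + pseudocount), no filter on low counts, only the groups compared, a replicate block, scaling to Pdgfra, and leaving out each library. One further alternative, WT vehicle replicate 2 as the lone WT vehicle library, was added after seeing the data.

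Exon lengths and positions came from GENCODE M21 on GRCm38, in which 40394 of the 40760 genes were found. Single values were tested by exact permutation in scipy 1.17.1. Named beside the 8 genes were the 3 genes with the highest Pearson's r to each (mean of at least 100 normalized counts, no clone-based names), up to 4 genes of each list by adjusted p (mean of at least 50), antisense genes that passed the filter, and Pdgfra, Ptprc and Pear1. The 8 genes and all lists were chosen with earlier results of these data known, so that none is independent support.

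The samples share replicate numbers only: deviations of same-numbered libraries from their group means correlated between -0.155 and 0.103. No column of authors' comparisons and no human data were used.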

Additional observations from a re-analysis of the deposited data

Results flagged for a closer look

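The change with bleo differed between the genotypes as labelled for 6 of the 8 genes by the test of the interaction in edgeR (log2 scale, Benjamini-Hochberg adjusted over 17418 genes): Tbx2 (1.47), Tbx3 (0.82), Tbx4 (0.89), Tbx5 (1.29), Meox2 (0.94) and Gata6 (-0.80). Of all genes tested, 37% were called in this test in either direction. With libraries scaled over all genes, the change in Tbx2, Tbx4 and Tbx5 had opposite signs in the genotypes. Gata6 fell in both on that scaling and fell further in the Pear1-/- libraries. Relative to Pdgfra the T-box signs were not opposite. Tbx2 was at 1.11 in WT and 1.63 in Pear1-/- cells, Tbx4 at 1.08 and 1.04, and Tbx5 at 1.35 and 1.70. Gata6 was then at 0.62 in WT and -1.11 in Pear1-/- cells. Relative to Pdgfra the interaction was called positive for 2 genes, Tbx2 and Tbx5, and negative for 3, Gata6, Foxf1 and Tcf21, where 3.88% of all genes tested had a positive and 64.8% a negative call.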

How the results depend on the processing

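The 40 log2 fold changes of the 8 genes were recomputed under 20 settings beside the scaling to Pdgfra, of which the fit with only the groups compared has no interaction, and those called in the report kept their direction in each setting run. Calls were lost for Tbx3 under 7 settings and Tbx4 under 6 between the Pear1-/- groups, and in WT bleo for Tbx5 under 4 and Tbx2 under 1. The cause was not tested. The replicate block gave 8 lower in WT bleo (36% of all genes), 3 higher and 4 lower in Pear1-/- bleo (28.6% and 32.7%), and changed no call of the 8 genes. 3 of the 12 libraries correlated best with one of their own number.

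Scaled to Pdgfra, the counts called higher and lower were 7 and 0 in WT bleo (all genes 77.2% and 8.5%), 5 and 2 in Pear1-/- bleo (63.4% and 14.2%), 1 and 3 between the bleo groups (3.94% and 71.1%) and 2 and 3 in the interaction (3.88% and 64.8%). On that scale WT bleo gave Foxf1 0.88, Gata6 0.62, Meox2 0.84, Tbx2 1.11, Tbx3 0.64, Tbx4 1.08, Tbx5 1.35 and Tcf21 0.19, Tbx3 had 0.52 in Pear1-/- bleo, the interaction gave Tbx3 -0.12, Tbx4 -0.042 and Tcf21 -0.78, and the vehicle groups gave Meox2 0.074 and Tbx5 0.043.

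Other signs turned in differences that were not called. Between the bleo groups Foxf1 was 0.0013 with DESeq2, 0.0079 and 0.0080 with limma at pseudocounts of 1 and 0.5, and 0.0020 with no filter. Tcf21 was 0.0097 with DESeq2 size factors, 0.0095 with DESeq2, 0.0063 with limma at either pseudocount, 0.011 with no filter and 0.00067 with only those groups. Between the vehicle groups no filter gave Meox2 0.038 and Tbx5 0.0048, and only those groups gave Tbx3 -0.0035. With WT vehicle replicate 2 as the lone WT vehicle library Foxf1 was 0.00060 and Tcf21 0.012 between the bleo groups, Meox2 0.049, Tbx2 0.076, Tbx5 0.081 and Tcf21 0.032 between the vehicle groups, and Tcf21 -0.020 in the interaction.

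Of the 8 genes, those called lower between the vehicle groups were 1 with no filter (8.17% of all genes) and from 0 to 2 when each library was left out in turn, with 2 (Tbx2 and Tcf21) only without WT vehicle replicate 2 (29.7% of all genes). All genes called there ranged from 0 to 11258, and limma called 33 or 42. Leaving out each library in turn gave Foxf1 from -0.083 to 0.094 and Tcf21 from -0.061 to 0.064 between the bleo groups, Meox2 from -0.035 to 0.061 in Pear1-/- bleo, and Meox2 from -0.091 to 0.048 and Tbx5 from -0.13 to 0.039 between the vehicle groups. At 42 to 181 raw counts Gata6 has the widest counting error of the 8.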
